A study of Arabidopsis thaliana with 4 samples.

Results

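AOP3, LUL1, AT5G49440, AT2G13660, AT4G19500, AT2G01090, AT5G25100, AT5G14840 and AT5G43440 are 9 genes of Arabidopsis thaliana whose array values divided seedlings of wild type and the gl1 mutant from those of the ttg1 and gl3 egl3 mutants. They were chosen by their identifiers, each is read by 1 probe set, and they stand among 13356 genes that a probe set of the array names singly and 22746 probe sets in all. The choice rests on the difference between the 2 pairs of arrays in the same data. That difference is therefore given as a description, with no test. AOP3 and AT5G25100 were higher in ttg1 and gl3 egl3, by 11.1-fold and 3.45-fold, and the other 7 were lower, by 5.43-fold to 8.37-fold.

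The study profiled 4 samples, 1 per genotype. It asked which transcripts depend on leaf hairs, or trichomes, by comparing wild type with 3 mutants that form none. Plants were kept in long days (16 h light, 8 h dark, 22 °C). Wild type, ttg1 and gl3 egl3 were 20 days old, and no age is given for gl1. The labels of wild type, gl1 and ttg1 state that green tissue was used, and that of gl3 egl3 names no tissue beyond the seedling. They name no alleles, no number of plants and no agent or treatment. Landsberg erecta (Ler) is named as the reference accession of ttg1 and gl3 egl3 and of no other sample, so an effect of accession and an effect of those genotypes cannot be told apart. The mutated genes encode parts of the MYB, bHLH and WD40 protein complex that starts trichome development. The series' design names a different partner of gl3 in the double mutant than the sample title does, and the title was followed. In samples of many cell types, fewer cells of a type and less RNA per cell cannot be told apart. Whether the probes match the loci of every sample equally was not tested, as no sequences were used.

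AOP3 belongs to the glucosinolate pathway, which gives plants of the cabbage family their mustard oils. Aliphatic glucosinolates are built from methionine by chain elongation, core synthesis and changes to the side chain. The AOP genes encode 2-oxoglutarate-dependent dioxygenases of the last step. AOP2 makes alkenyl forms and AOP3 hydroxyalkyl forms, and natural accessions are known to differ in which of these neighbouring genes their leaves express. Ler is known for AOP3 and its hydroxypropyl product, while Columbia leaves have neither activity. The Columbia reference annotation lists AOP2 as a transcribed pseudogene, and no probe set named for AOP2 was analysed here.

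Values are log2 probe set signals after quantile normalization, which gives all 4 arrays the same distribution. AOP3 was at 4.27 in wild type and 4.69 in gl1, against 8.15 in ttg1 and 7.75 in gl3 egl3. Both arrays of the first pair were low and both of the second high, with no overlap. The pair means were 4.48 and 7.95, a difference of 3.47. The closest values across the pairs, those of gl1 and gl3 egl3, were still 3.07 apart. This distance between the closest values of the 2 pairs is called the least gap below. The gl1 array was 0.42 above wild type, and gl3 egl3 was 0.39 below ttg1. Against wild type alone, the differences were 3.88 in ttg1 and 3.49 in gl3 egl3, which share the wild-type array. In the 12601 probe sets that reached the level filter (a highest value of at least 6.26, the median of all values), no difference was more positive than that of AOP3.

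**Figure D1:**
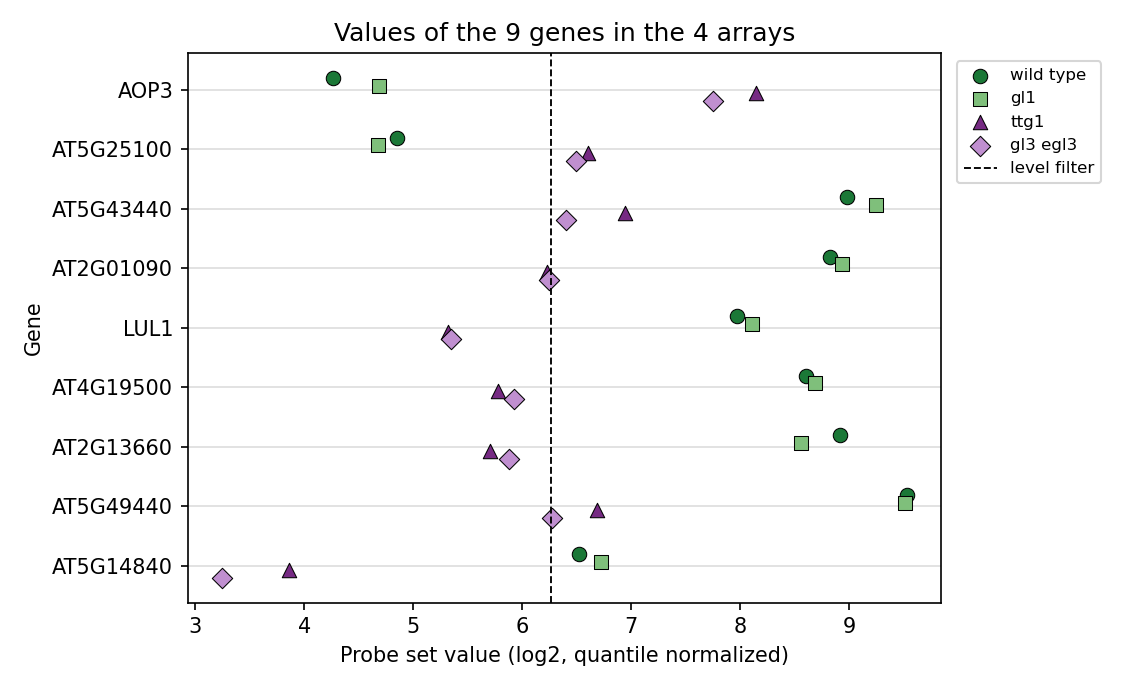
Values of the 9 genes in the 4 arrays. The x axis is the quantile-normalized log2 probe set value, each row is a gene, the 4 symbols are the single arrays (set slightly apart in height) and the dashed line is the level filter at 6.26. Within each row the symbols of wild type and gl1 lie on one side and those of ttg1 and gl3 egl3 on the other, with AOP3 and AT5G25100 high in the latter pair.

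The other genes of aliphatic glucosinolate synthesis that are named here differed by at most 0.41 upward. Of 31 listed genes, 5 are named by a probe set here. All 5 reached the level filter and limma called 0 of them between the pairs, against 0.421% of all filtered probe sets. At that share a count of 0 in a short list tells little, here and in the lists below. The 5 had a median difference of 0.16, against 0.03 over all filtered probe sets. That median was 0.03 with array medians subtracted, 0.06 without ttg1 and 0.04 without gl3 egl3. BCAT4, the aminotransferase that begins chain elongation, was at 11.20 in both wild type and gl1, against 11.40 (ttg1) and 11.34 (gl3 egl3). GSTU20, a glutathione S-transferase of core synthesis, stayed between 11.51 and 11.57 in all 4 arrays. AOP1, the third gene of the AOP cluster, was at 5.66, 5.92, 6.59 and 5.80 in wild type, gl1, ttg1 and gl3 egl3. Its pairs overlapped, since gl3 egl3 lay below gl1.

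The exception by size was AT2G25450, an oxygenase gene that acts on alkenyl side chains, after the AOP2 step. It was at 11.39 in wild type and 11.37 in gl1, against 9.94 in ttg1 and 8.77 in gl3 egl3. Both mutants of the second pair were low, and gl3 egl3 minus ttg1 was -1.17. Its difference of -2.03 did not pass limma's test (adjusted p = 0.14), though it did in the deposited values without further scaling (adjusted p = 0.025) and without the ttg1 array (adjusted p = 0.0060). Over its 9 alternatives the adjusted p ran from 0.0060 to 0.63. Of 17 genes of indole glucosinolate synthesis, 1 is named here, the glucosyltransferase gene UGT74B1, with a difference of 0.05. Of 13 genes of glucosinolate breakdown, the beta-glucosidase gene PYK10 is the 1 named, with -0.22. Neither passed limma's test.

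AT5G25100, the other gene with higher values, encodes a multispanning membrane protein of the EMP70 family of the endomembrane system. The reference table gives it no symbol, nor any of the other members listed by a locus identifier alone, and roles stated for those are background knowledge. It was at 4.85 in wild type and 4.68 in gl1, against 6.61 in ttg1 and 6.49 in gl3 egl3. The pairs did not overlap, and their difference of 1.79 was the smallest of the 9. Its least gap was 1.64. Among 11 other genes of the family, 7 are named and 5 reached the level filter. Limma called 0 of these. The largest differences of the 7 were those of AT2G24170 at -0.30, AT1G14670 at -0.29 and AT5G37310 at 0.26.

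Among the genes with lower values in ttg1 and gl3 egl3, AT4G19500 encodes an NLR protein, an intracellular immune receptor with a nucleotide-binding site and leucine-rich repeats. It was at 8.60 in wild type and 8.69 in gl1, against 5.77 in ttg1 and 5.92 in gl3 egl3. The first pair was high and the second low, with a difference of -2.79 and a least gap of 2.68. Within the pairs the arrays were 0.08 and 0.15 apart, and those of the second pair 0.30 in the deposited values. Of 27 other NLR genes listed, 5 are named, and 3 reached the level filter. CSA1, an NLR gene named for a shade-avoidance mutant, fell by 2.11 and was the 1 of these 3 called (limma, adjusted p = 0.039). NLR genes outside the list were not counted. Over all filtered probe sets 0.421% were called. CSA1 was at 7.02 in wild type and 7.12 in gl1, against 4.76 in ttg1 and 5.17 in gl3 egl3. Its adjusted p was 0.051 after cyclic loess, 0.092 without the level filter, and 0.28 without the wild-type array and also without gl1. Over the 8 alternatives that tested it, the adjusted p ran from 0.013 to 0.28. The median of the 5 NLR genes was -1.01, but -0.57 in the deposited values and -0.58 without gl3 egl3. These 5 include AT4G19510, AT4G19520 and AT4G19530, which lie beside AT4G19500 and are counted again among its neighbours below.

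AT5G43440 encodes a 2-oxoglutarate-dependent oxygenase, a member of the same enzyme class as AOP3. It was at 8.98 in wild type and 9.25 in gl1, and at 6.95 in ttg1 and 6.40 in gl3 egl3. The pairs differed by -2.44 with a least gap of 2.03, so this gene had the second smallest gap after AT5G25100. The gl3 egl3 array was 0.55 below ttg1, the largest distance within a pair relative to the gap. Of 16 related oxygenase genes, 14 are named here and 8 reached the level filter. Limma called 0 of them, and the median difference of the 14 was 0.02 (0.43 in the deposited values, -0.10 without gl3 egl3). Beside AT2G25450, the largest were AT1G03400 at 0.85 and AT1G04350 at 0.76. AT5G43450, a near neighbour of AT5G43440 in the annotation, was at 8.99 (wild type), 8.53 (gl1), 8.50 (ttg1) and 9.45 (gl3 egl3). Its pairs overlapped.

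AT2G01090 encodes a small hinge subunit of complex III, the cytochrome bc1 complex of the mitochondrial respiratory chain. Its values were 8.83 in wild type and 8.93 in gl1, against 6.22 in ttg1 and 6.24 in gl3 egl3. The pairs lay 2.58 apart at their closest, and the arrays within them 0.10 and 0.02. AT1G15120, the paralog of this subunit, was at 9.99, 9.95, 9.77 and 10.24, and its pairs overlapped. Of 14 other complex III genes listed, 10 are named and 9 reached the level filter, of which limma called 0. The largest difference among the 10 was that of AT3G10860, a subunit gene, at -0.95 (limma, adjusted p = 0.21). MPPBETA, a core subunit gene, was at -0.28 and AT5G25450, also a subunit gene, at 0.25. The median of the 10 was 0.04, and it was below 0 after cyclic loess (-0.01) and with array medians subtracted (-0.11).

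LUL1 encodes a RING-type ubiquitin ligase related to LOG2, which acts in amino acid export. LUL1 was at 7.97 in wild type and 8.11 in gl1, against 5.32 in ttg1 and 5.34 in gl3 egl3. The lower pair was 0.02 apart, but 0.38 in the deposited values, and the pairs differed by -2.70. Of the other 4 genes of this family, LUL2 and LUL4 are named here. LUL2 differed by 0.26 and LUL4 by 0.03, and limma did not call LUL2, the 1 of them that reached the level filter.

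No function is given here for the last 3 genes. AT5G49440 was at 9.53 in wild type and 9.51 in gl1, against 6.68 in ttg1 and 6.27 in gl3 egl3, the highest first-pair values of the 9. AT2G13660 was at 8.92, 8.56, 5.70 and 5.88 in the same order. AT5G14840, a transcribed pseudogene in the Columbia annotation, was at 6.52, 6.72, 3.86 and 3.25. The pairs of each gene did not overlap, and the differences were -3.04, -2.95 and -3.07. AT5G14840 had the lowest values of the 9, with ttg1 and gl3 egl3 below 4.22, the lower quartile of all values. There gl3 egl3 minus ttg1 was -0.61, the largest within-pair difference of the 9, but 0.34 in the deposited values.

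The 9 genes were listed with their values in this comparison known. Limma called 53 of 12601 filtered probe sets at an adjusted p under 0.05, a percentage of 0.421, of which 0.381 were lower and 0.0397 higher. Of the 53, 38 name 1 gene, and all 9 members are among these. The other 29 named genes were all lower. The members include the only 2 named higher genes. All 9 had pairs at least 1 (log2) apart, as had 1.81% of filtered probe sets (1.48% lower, 0.333% higher). Nothing is read from these shares, since the rule used the contrast. All 9 reached the level filter, but 7 did so only through their higher pair, because both arrays of the lower pair were below 6.26. AT5G49440 and AT5G43440 were the exceptions.

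**Figure D2:**
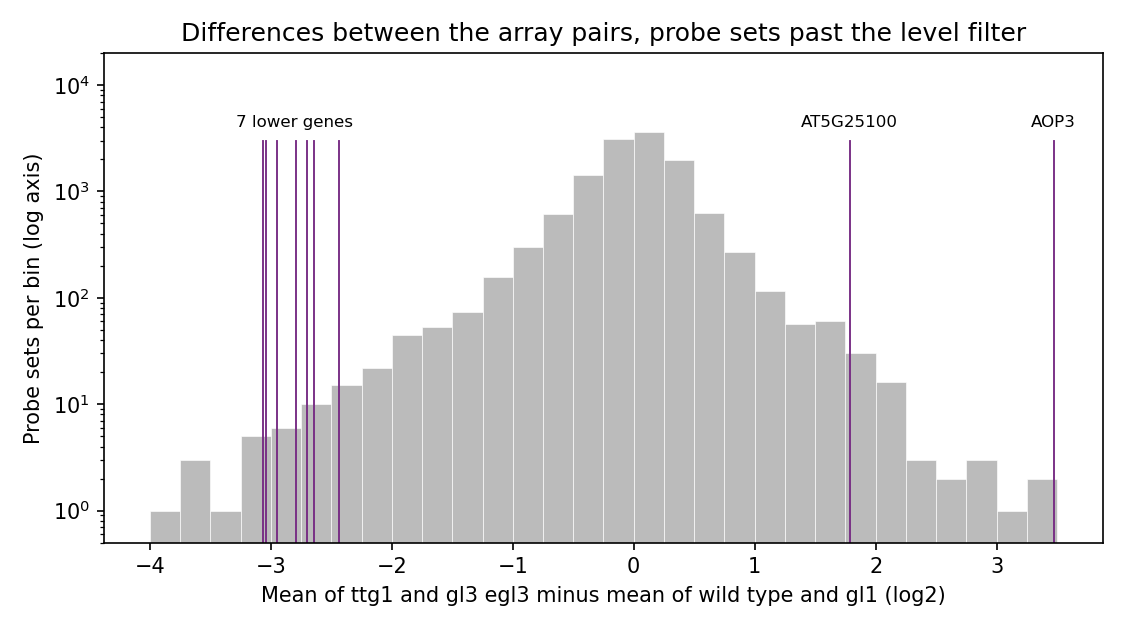
Distribution of the difference between the array pairs over the 12601 filtered probe sets. The x axis is the mean of ttg1 and gl3 egl3 minus the mean of wild type and gl1 (log2), the bars count probe sets on a log axis, and vertical lines mark the 9 genes. AOP3 lies at the upper end at 3.47, AT5G25100 at 1.79, and the 7 lower genes between -3.07 and -2.44.

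Within the pairs the 9 genes varied little and in both directions. The absolute difference of gl1 from wild type ran from 0.01 to 0.42 with a median of 0.18, against 0.23 over all filtered probe sets. That of gl3 egl3 from ttg1 ran from 0.02 to 0.61 with a median of 0.18, against 0.31. The gl1 array was above wild type in 6 of the 9, and gl3 egl3 above ttg1 in 4. A choice by limma's test favours genes with small distances within pairs, so these medians are no independent property of the genes. In the quantile-normalized values the least gap was 25.2 times the larger within-pair distance in AT2G01090, 19.1 times in LUL1 and 17.9 times in AT4G19500. It was 4.34 times in AT5G14840 and 3.73 times in AT5G43440, the lowest of the 9. These ratios depend on the scaling. In the deposited values the least gaps of AT2G01090, LUL1 and AT4G19500 were 2.30, 2.06 and 2.33. Their wild-type and gl1 values lay further apart there, at 8.67 and 9.03, 7.755 and 8.24, and 8.44 and 8.79.

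The 9 genes were listed by name, with no threshold of their own, and limma's limit does not part them from other genes, since 29 further named genes were called. The 3 named genes called just inside that limit were AT5G25100, at a difference of 1.79, AT4G13050, at -1.77, and AT5G56380, at -2.17, and only AT5G25100 is one of the 9. Just outside it, AT5G15360 differed by 2.21, at 4.14 in wild type and 3.64 in gl1, against 5.89 in ttg1 and 6.30 in gl3 egl3. AT1G63880, the next one outside, was at 7.73, 8.79, 5.30 and 5.39 in the same order. Its difference of -2.91 was larger in size than those of 5 of the 9.

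The genes of most similar pattern were ranked by their least gap over the 4 arrays among named, filtered probe sets. On the lower side AT2G25510, at 3.10, and AT1G66100, at 2.89, had larger gaps than any lower member. AT2G25510 was at 9.91, 10.22, 6.81 and 6.06 in wild type, gl1, ttg1 and gl3 egl3. AT1G66100 was at 8.68, 9.61, 5.67 and 5.78. Then followed the members AT5G49440, AT2G13660, AT4G19500 and AT5G14840. AT2G33220 had a gap of 2.63 and came before LUL1 and AT2G01090. AT2G22425, AT3G16750 and AT1G59970 had gaps of 2.50, 2.50 and 2.39, and AT5G43440 ranked 27th of the lower genes.

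On the higher side no other named gene came near AOP3. AT2G29170 was second, with a least gap of 1.87, and AT5G15360 and AT5G26970 followed at 1.75 and 1.66. AT5G25100 ranked next at 1.64. GSTU23, a glutathione S-transferase gene, came after it, then JRG21, a jasmonate-regulated gene, at 1.40 and AT2G04980, a pseudogene, at 1.34. AT2G29170 was at 3.55, 3.95, 5.82 and 6.80, and its ttg1 and gl3 egl3 arrays were 0.98 apart, where those of AT5G25100 were 0.11 apart. GSTU23 was at 4.41, 4.21, 5.91 and 6.81.

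The chromosomal neighbours of the 9 genes mostly differed by less than 1 between the pairs. Up to 10 annotated genes on each side were taken in the order of the Columbia reference, 180 in all, of which 60 are named by a probe set here. Limma called 0 of the 29 neighbours that reached the level filter, against 0.421% of all filtered probe sets, a share at which 0 tells little. Without regard to the filter, 6 of the 60 differed by at least 1 between the pairs, against 4.42% of the 13513 probe sets that name 1 gene. The count was 3 in the deposited values, 4 after cyclic loess and 2 after subtraction of array medians. With each array left out in turn it ran from 2 (without gl1 and without gl3 egl3) to 8 (without ttg1). The median difference of the 60 was -0.10, in a range from -1.28 to 1.26.

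Of these 6 neighbours, 3 lay around AT4G19500. AT4G19510, the next gene and also an NLR gene, was at 5.15 in wild type and 5.53 in gl1, against 4.24 (ttg1) and 4.40 (gl3 egl3). AT4G19530, a further NLR gene, was at 8.80, 9.43, 8.53 and 7.68, a difference of -1.01 (limma, adjusted p = 0.49). AT4G19520 between them differed by -0.05, with overlapping pairs. The third was AT4G19440, at 5.67, 5.61, 4.96 and 3.77. These 4 genes had smaller differences than the -2.79 of AT4G19500, and AT4G19530 was the only one of the 6 above the level filter.

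The remaining neighbours by this size were AT4G03100 near AOP3 at -1.05, AT5G49500 near AT5G49440 at -1.14 and the pseudogene AT2G13750 near AT2G13660 at 1.26. AT4G03040, next to AOP3, was at 4.59, 4.32, 4.61 and 4.86 in wild type, gl1, ttg1 and gl3 egl3, a difference of 0.28. AOP1, the nearest named gene on the other side, differed by 0.41. AT2G01080 and AT2G01100, on the 2 sides of AT2G01090, differed by -0.21 and 0.26. The nearest named neighbours of LUL1 were CPUORF47 at 0.19 and AT5G03230 at 0.28, and those of AT5G49440 were AT5G49430 at 0.03 and AT5G49470 at 0.23. ETFBETA, beside AT5G43440, differed by -0.31 and AT5G43450 by 0.21. AT5G14830, a pseudogene beside AT5G14840, differed by -0.24 and AT5G14860 by 0.13. For AT2G13660 the nearest were AT2G13630 at 0.39 and AT2G13690 at -0.57, and for AT5G25100 AT5G25080 at -0.32 and AT5G25170 at -0.09. AT4G19480, the nearest named gene on the other side of AT4G19500, differed by -0.22.

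**Figure D3:**
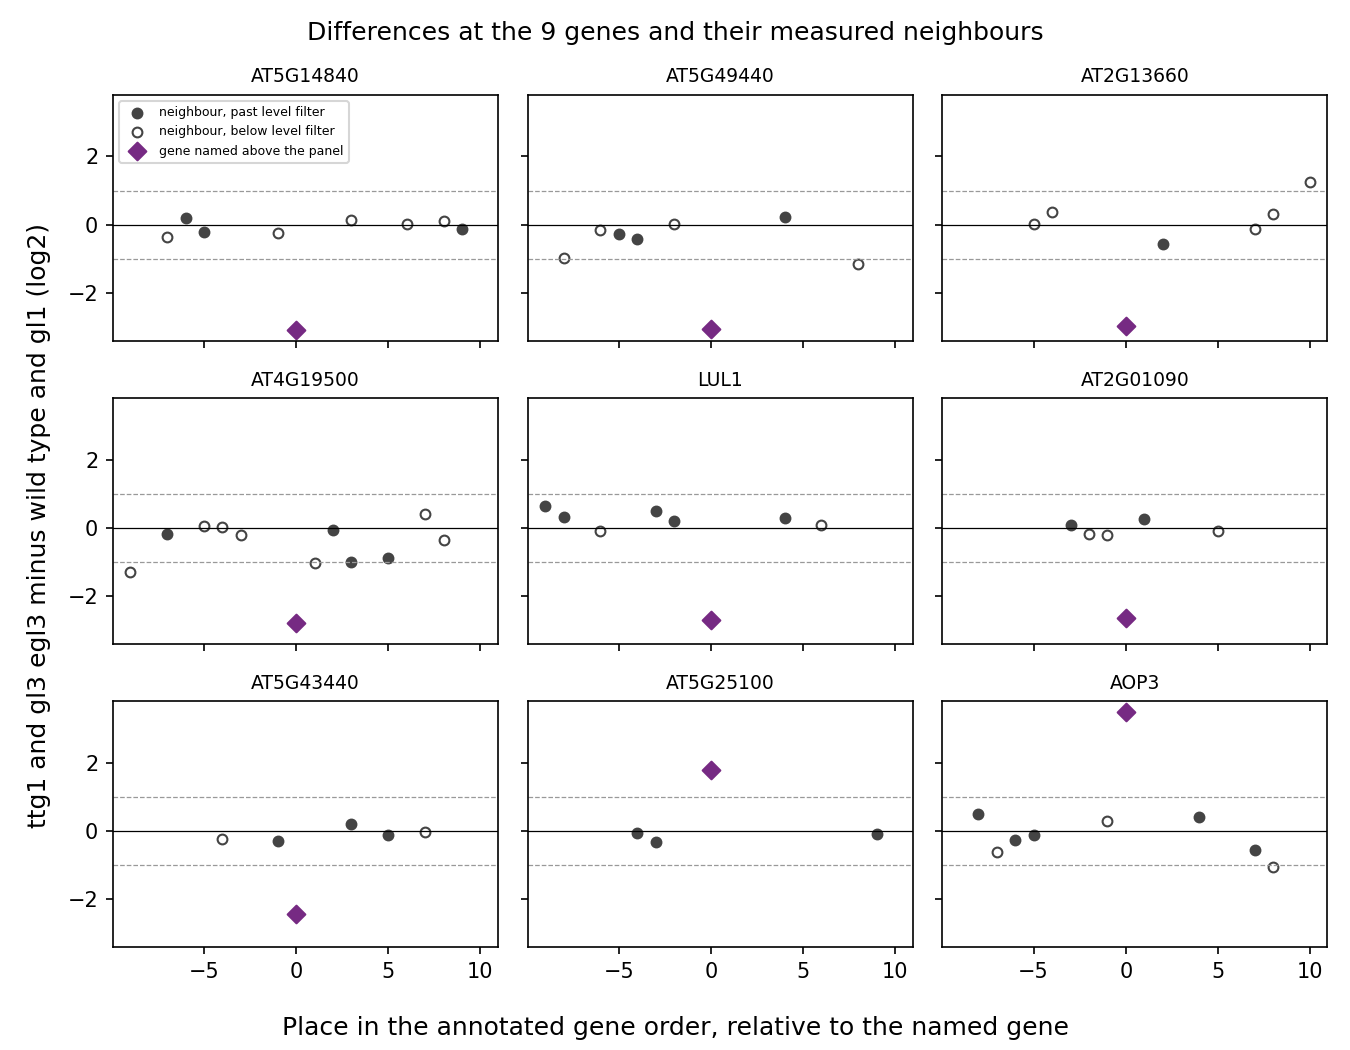
Differences at the 9 genes and at their named neighbours. Each panel is 1 gene, the x axis is the place in the annotated gene order (0 is the gene itself), the y axis is ttg1 and gl3 egl3 minus wild type and gl1 (log2), and dashed lines mark a difference of 1. Open circles are neighbours below the level filter. The diamonds of the 9 genes lie from -3.07 to 3.47, and the circles between -1.28 and 1.26.

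By their identifiers, 5 of the 9 genes are on chromosome 5, 2 on chromosome 4 and 2 on chromosome 2. None is on chromosome 1 or 3, which hold 25.5% and 20.3% of named probe sets. Of the 29 other named genes that limma called, 17 are on those 2 chromosomes. The 9 are a chosen list, and the cause of their spread over the chromosomes was not tested.

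The differences of the 9 genes kept their direction under every scaling tried. AOP3 differed by 3.78 in the deposited values, 3.57 after cyclic loess and 3.59 after each array's median was subtracted. AT5G25100 differed by 2.13, 1.84 and 1.94 under the same settings. AT5G14840 differed by -2.65 in the deposited values and -2.83 with medians subtracted. In the deposited values both higher genes differed more, and all 7 lower ones less, than after quantile normalization. With each array left out in turn, all 9 kept pairs at least 1 apart. This had to follow, since leaving out an array cannot narrow the least gap. With those alternatives included, AOP3 ran from 3.26 to 3.78, AT5G43440 from -2.71 to -2.17 and AT2G01090 from -2.71 to -2.52. Without the wild-type array, without gl1 or without the level filter, limma called 0 probe sets in all, these 9 included.

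**Figure D4:**
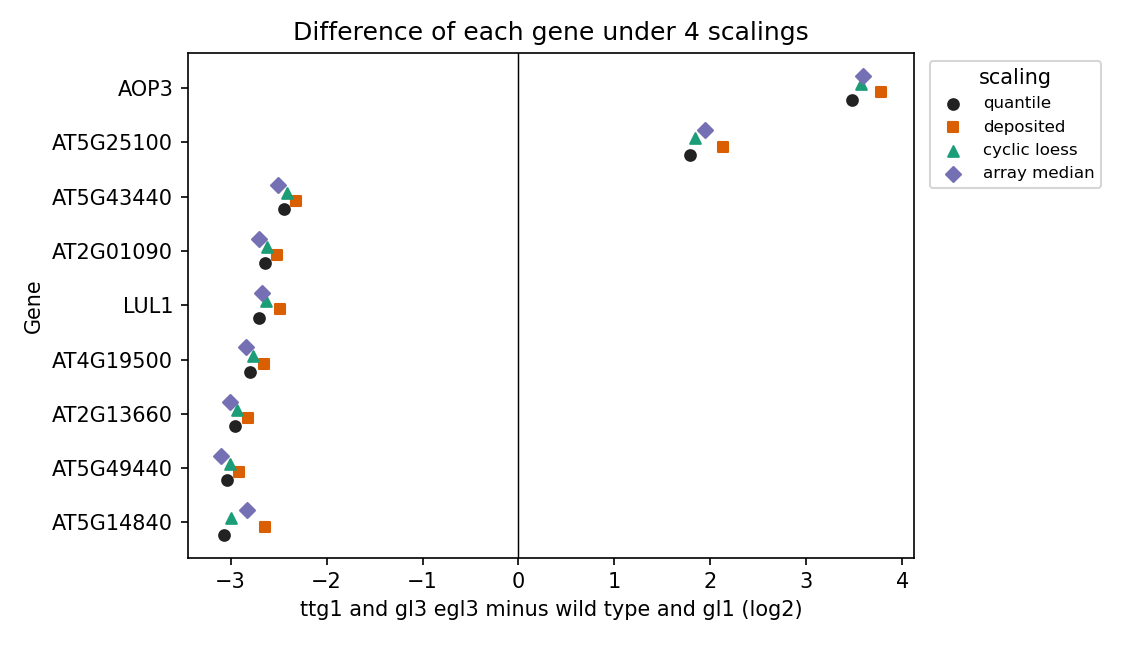
Difference of each of the 9 genes under 4 scalings. The x axis is ttg1 and gl3 egl3 minus wild type and gl1 (log2), rows are genes and symbols are scalings. The symbols of each gene stay on one side of 0, from 3.47 to 3.78 in AOP3 for example.

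The arrays themselves differed in ways that touch these values. Deposited array medians lay at 5.93 for wild type and from 6.33 to 6.40 for the mutant arrays. The lower quartile of gl3 egl3, 4.93, exceeded those of the other arrays, at most 4.12. The wild-type column comes in steps of 0.005, which the mutant columns do not show. Whether that column holds 1 array or an average of arrays was not tested, and it is treated as 1 array throughout. Over all filtered probe sets the median difference between the pairs was 0.12 in the deposited values. RCA and PRK, the 2 named of 11 photosynthesis markers, were at 11.23 to 12.30 in all arrays. The 3 named of 8 root markers averaged 6.62 (wild type), 6.57 (gl1), 6.27 (ttg1) and 6.07 (gl3 egl3). They differed between the pairs by -1.14 for the root-hair expansin gene EXPA18, 0.06 for EXPA7, another such gene, and -0.22 for PYK10. PYK10 was high in all 4 arrays, at 11.18, 11.34, 11.18 and 10.91 in the same order. EXPA18 was at 5.34, 5.11, 4.27 and 3.89. Both expansin genes were below the level filter. Of 11 trichome genes 4 are named, with a median difference of 0.11. SIM differed by 0.15, GIS by 0.07 and MYC1 by -0.01. TRY, a single-repeat MYB gene, differed by 1.76, with 8.24 in gl3 egl3 where the other arrays had 4.84 to 5.56. The mutated genes are not named by a probe set here. The part of these differences in the values of the 9 genes was not tested.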

How the data were processed

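The authors deposited log2 values, 1 per probe set and array, made with RMA per the submitters' processing notes, with no version or settings named in the labels used here. Per the labels' protocols, biotin-labelled cDNA was amplified from 25 ng of total RNA. Of 22810 probe sets, 64 controls were left out. Because the deposited columns had unlike distributions, values were quantile normalized with limma 3.58.1 in R 4.3.3. Names came from the platform annotation through Entrez numbers to the reference assembly TAIR10.1: 13513 probe sets name 1 gene (13436 matched, 6798 past the level filter), and 503 name several and were not named. In lists and neighbours, a gene with several probe sets was represented by that with the highest mean.

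The 2 pairs of arrays were compared with limma's lmFit and eBayes, and Benjamini-Hochberg adjustment at 0.05 over the filtered probe sets. With 1 array per genotype, its spread is that between unlike genotypes, so p-values describe only the scatter among these arrays, whose small number limits precision. The fit was also run on data simulated from its own estimated spread, which cannot show whether unlike genotypes may stand as replicates.

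The 9 members, the comparison and the 9 gene lists (134 loci, 44 named) were chosen with earlier results of these data known. The list of genes often named in accession comparisons had no named member. Genes named were the members, the 6 most similar per direction, the nearest named neighbours and any at least 1 apart, and in each list the called genes and those with the largest differences. GSTU20, AT1G15120, AT4G19520, AT4G13050, AT5G56380 and AT1G63880 fall outside that rule and were named after their values were seen. No sequences of these loci were used here.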

Additional observations from a re-analysis of the deposited data

How the results depend on the processing

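The directions of the 9 genes held in all 63 combinations of gene and alternative, with a smallest absolute difference of 1.70, and all 9 had pairs at least 1 apart throughout. With an array left out neither result could change, since the pairs did not overlap and their least gap cannot narrow. The other alternatives rescale the values by which the genes were chosen, so no support is drawn from these counts. Counts of limma calls did move. Against 48 lower and 5 higher, limma called 89 and 47 with the deposited scaling, 91 and 13 by cyclic loess, and 119 and 18 with array medians subtracted. With a stricter level filter, at the upper quartile, 53 were lower and 3 higher. Without the filter both counts were 0 by limma, though 1149 and 743 fell under an unadjusted p of 0.05. With each array left out in turn, the lower calls ran from 0 to 349 and the higher from 0 to 358. Both were 0 without wild type (407 and 170 at an unadjusted p under 0.05) and without gl1 (574 and 358), and the high counts came without ttg1. A lone array is there assumed to vary like the others, and the cause was not tested. Of 60 neighbours, 6 were at least 1 apart, 3 in the deposited values, 2 with medians subtracted and 2 to 8 with an array left out. Each gene has 1 probe set that names it alone, and probe sets that name several genes were not used, so no other was tried. No paired analysis was possible because each genotype has 1 array, which leaves no replicates to pair. Signal over background is not known, as no detection calls were used.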
